A study of Mus musculus with 4 samples.

Results

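Collagens are the secreted proteins that give connective tissue its structure, and each mature molecule is wound from collagen alpha chains encoded by separate genes. The genes described here are the 41 collagen alpha chain genes on the array, of 27763 gene names with a probe. The rule takes every gene named Col with a type number, the letter a and a chain number. It uses no measured value, although the family was picked with earlier results of these data known. Where a gene had more than 1 probe, as 28 of the 41 did, the probe whose log2 signal, averaged over the 4 arrays, was highest stood for it. The 41 genes had 80 probes in all.

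Expression was measured in 4 populations grown from the bone marrow of BALB/c mice, each hybridised once to a one-colour Agilent array. Immature dendritic cells (imDCs) were the clusters loosely attached on day 4 of culture with the growth factors GM-CSF (10 ng/mL) and interleukin 4 (5 ng/mL), taken on beads against CD11c. Mature dendritic cells (maDCs) were purified imDCs kept 4 to 5 days longer with lipopolysaccharide (LPS, 10 ng/mL), a component of bacterial walls that activates them. The cells called sDCs in the labels grew from marrow depleted of lineage-committed cells on layers of Sca-1+CD117-Lin- mesenchymal stem cells (MSCs). They received LPS on day 4, at a dose the labels do not state, and were collected on day 9. Antibody-treated sDCs were made in the same way with 10 µg/mL of an antibody that neutralizes IL-10, a cytokine that restrains inflammation, added every 2 days. The series design calls all 4 populations purified. The labels do not say how sDCs were parted from the MSC layer, and the arrays do not tell which cells of a sample a collagen signal came from.

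A value below is the log2 of the background-subtracted spot signal minus the 75th percentile of its array, so 0 is the level of that percentile, and a difference of 1 is a 2-fold difference. With 1 array per group there are no replicates, no test was possible, and 2-fold served as the size past which a gene was counted. A probe was taken as measured where the scanner software marked at least 50% of its spots as well above background. Where this held on only 1 of the arrays compared, the difference is a bound, written "at least". For the bound, the dim side was set at the dim probe's own signal or at the faintest signal marked well above background on that array, whichever was higher. That faintest signal was -7.21 in imDCs, -5.36 in maDCs, -5.96 in sDCs and -5.68 in antibody-treated sDCs. A gene measured in imDCs but not well above background on another array may therefore be no lower there. Col5a2, for example, read -5.48 in imDCs and an unmarked -5.23 in maDCs. Probes differ in how brightly they bind, so a level is compared between arrays for 1 probe and never between genes.

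A collagen alpha chain carries long stretches in which every 3 residues bring a glycine, the only residue small enough to sit at the centre of the triple helix. Chains are hydroxylated and folded in the endoplasmic reticulum, trimmed outside the cell, assembled into fibrils or networks and crosslinked. Mesenchymal cells such as fibroblasts, osteoblasts and bone marrow stromal cells are the main makers of fibrillar collagen, and haematopoietic cells mostly meet collagen through receptors and degrade it through proteases.

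The repeat that defines the family can be read in the probes themselves. Of the 80 probes of collagen genes, 3 carried 6 or 7 glycine codons spaced 3 codons apart along their 60 bases, against 0 of the 41094 other probes. They are shown here, 5′ to 3′, because they display what the members share, with the glycine codons in capitals.
Col11a2: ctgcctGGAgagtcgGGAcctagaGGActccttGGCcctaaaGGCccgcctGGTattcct
Col5a1: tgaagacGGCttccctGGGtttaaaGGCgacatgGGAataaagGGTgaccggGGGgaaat
Col5a3: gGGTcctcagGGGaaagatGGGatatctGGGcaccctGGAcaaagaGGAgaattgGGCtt
In the mouse build mm9, which the scanner files use, these probes lie at chr17:34189287-34189453 (Col11a2), chr2:27842243-27844666 (Col5a1) and chr9:20590066-20590795 (Col5a3). Each spans an intron, so each reads spliced transcript. Of the 80 probes, 12 span an intron. None of the 3 was the brighter probe of its gene, and the values below come from other probes.

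The stretches before the start sites of 3 genes with large differences, Col1a2, Col3a1 and Col8a1, are shown as RefSeq gives them for the build GRCm38.p6, to let their motifs be compared. Capitals mark matches, on either strand, to the letters CCAAT of the CCAAT box, to the letters TATAAA of the TATA box, and to the letters GGGCGG of the GC box, which read CCGCCC on the opposite strand.
Col1a2: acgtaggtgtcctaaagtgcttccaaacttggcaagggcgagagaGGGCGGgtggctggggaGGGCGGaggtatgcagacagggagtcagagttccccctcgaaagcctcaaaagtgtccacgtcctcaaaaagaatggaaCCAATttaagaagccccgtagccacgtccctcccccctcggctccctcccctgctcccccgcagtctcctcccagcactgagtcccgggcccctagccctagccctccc
Col3a1: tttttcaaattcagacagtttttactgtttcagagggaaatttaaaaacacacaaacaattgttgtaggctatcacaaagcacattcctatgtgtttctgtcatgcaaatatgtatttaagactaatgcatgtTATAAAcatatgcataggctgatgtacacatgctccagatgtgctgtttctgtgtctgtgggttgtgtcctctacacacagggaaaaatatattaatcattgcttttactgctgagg
Col8a1: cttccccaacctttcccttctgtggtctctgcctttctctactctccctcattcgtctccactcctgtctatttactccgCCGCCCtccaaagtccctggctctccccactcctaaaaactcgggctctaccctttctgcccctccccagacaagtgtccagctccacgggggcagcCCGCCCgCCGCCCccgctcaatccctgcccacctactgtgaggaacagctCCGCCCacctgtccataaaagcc
They are the 250 bases upstream of the annotated start, at chr6:4505368-4505617 on the plus strand (Col1a2), chr1:45311288-45311537 on the plus strand (Col3a1) and chr16:57754738-57754987 on the minus strand (Col8a1). The Col1a2 stretch holds 1 CCAAT and 2 GGGCGG, the Col3a1 stretch 1 TATAAA and the Col8a1 stretch 4 GGGCGG on the opposite strand. The Col1a2 CCAAT begins 109 bases and the Col3a1 TATAAA 117 bases before the annotated start, and the letters alone do not give a promoter type. The 3 stretches have no motif in common. Over windows of 250 bases before and 50 after the start, 35 windows of 32 of the genes could be matched. CCAAT occurred in 34.3% of them and in 37.4% of all 32851 windows, TATAAA in 14.3% and 13.6%, and GGGCGG in 57.1% and 35.7%. A match of letters is a description of the window, not evidence of a bound factor.

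Of the 41 genes, 19 were well above background on all 4 arrays and 16 on 1 to 3 of them. The remaining 6 were well above background on no array by any probe. These were Col4a3, a chain of specialised basement membranes, Col6a3 and Col29a1 (named Col6a5 in RefSeq), chains of beaded filaments, Col9a1 and Col10a1, chains of cartilage, and Col28a1. By array, 29 genes were well above background in imDCs, 24 in maDCs, 32 in sDCs and 31 in antibody-treated sDCs. These are 70.7%, 58.5%, 78.0% and 75.6% of the 41, beside 68.3%, 60.2%, 64.7% and 62.3% of all genes. The imDC and maDC shares were thus near those of all genes. Among the 35 genes measured anywhere, the brightest of their measured arrays was sDCs for 19, maDCs for 10, antibody-treated sDCs for 5 and imDCs for 1. The last, Col13a1, was measured in imDCs alone, at -6.98. Its unmarked signals on the other arrays were higher, at -5.79 in maDCs, -5.93 in sDCs and -6.40 with the antibody.

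**Figure D1:**
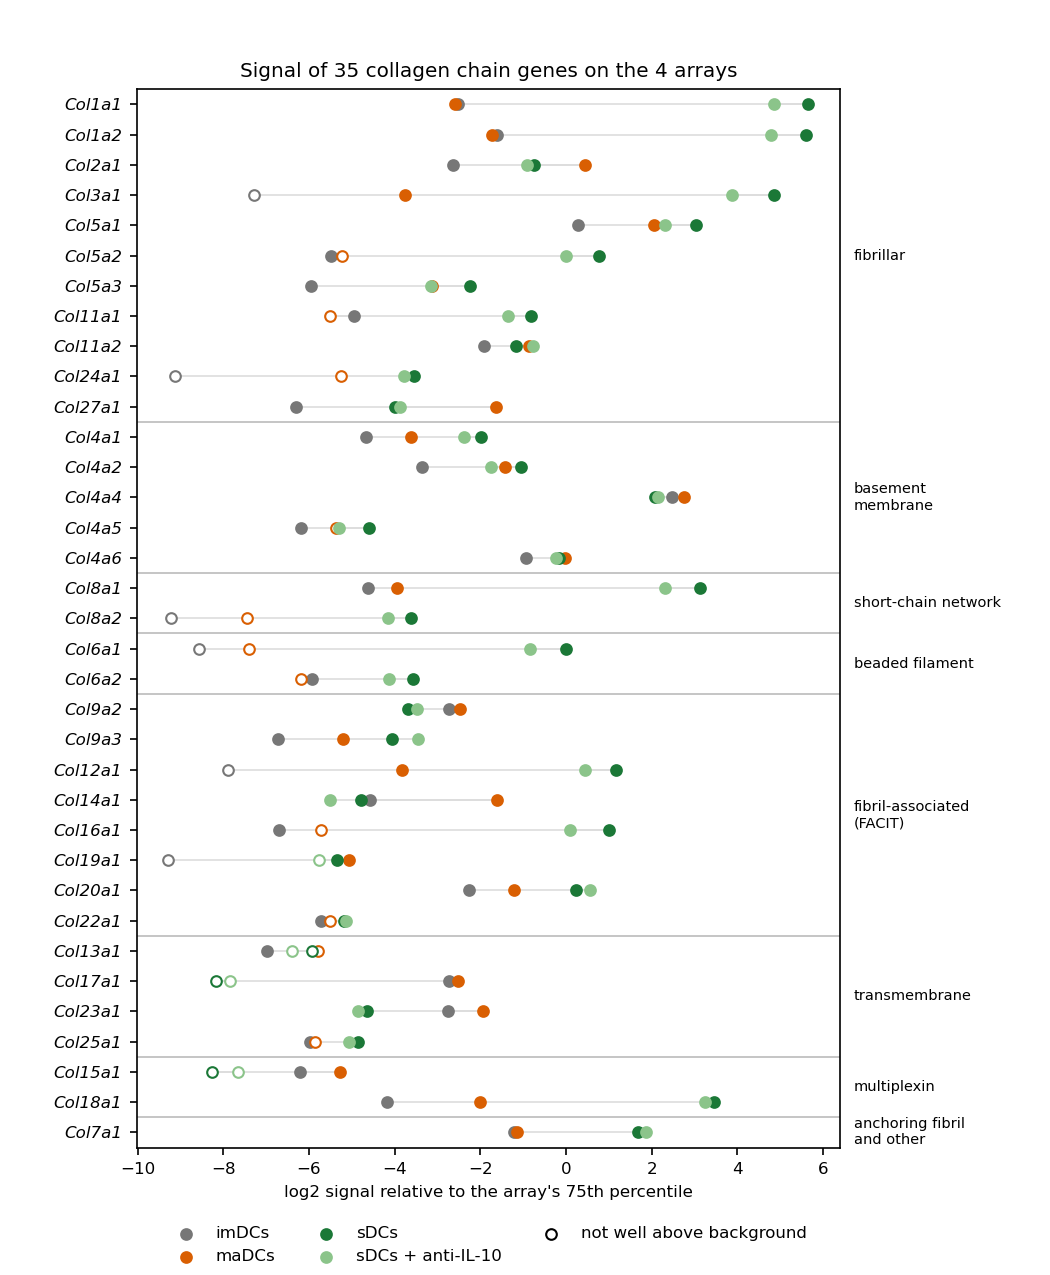
Signal of each of the 35 collagen chain genes measured on at least 1 array, as log2 signal relative to the array's 75th percentile, with 1 point per array and open points where the probe was not well above background. The sDC points of Col1a1, Col1a2 and Col3a1 lie at 5.65, 5.60 and 4.85, while the imDC and maDC points of these 3 genes lie at -1.60 or below.

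The comparison of sDCs with imDCs gave the largest differences. Of 33 genes with a value, 25 were at least 2-fold higher in sDCs, 6 of them as a bound, against 28.2% of all genes with a value. Only Col17a1 and Col23a1 were at least 2-fold lower, against 14.7% of all genes. The median difference over the 33 genes was 2.66, beside 0.31 over all genes. Against maDCs, 17 of 34 genes were at least 2-fold higher in sDCs, 7 of them as a bound, where 15.4% of all genes were, and 6 were at least 2-fold lower, where 16.1% were. The median difference was 1.06, beside 0.05 over all genes. Together, 17 collagen genes were at least 2-fold higher in sDCs than in both other cultures. These 2 comparisons share the sDC array.

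The fibrillar chains form the banded fibres of connective tissue. All 11 had a value in sDCs against imDCs, and 10 of them were at least 2-fold higher. Against maDCs, 6 of the 11 were at least 2-fold higher and 2 were lower.

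Col1a1 and Col1a2 encode the chains of type I collagen, the main collagen of bone, skin and marrow stroma. Col1a1 (probe at chr11:94813075-94813134, plus strand) read -2.52 in imDCs, -2.60 in maDCs, 5.65 in sDCs and 4.86 in antibody-treated sDCs. Both sDC arrays stood far above the other 2, which differed by 0.08. The sDC level was 288-fold that of imDCs and 305-fold that of maDCs, log2 differences of 8.17 and 8.25. This probe was spotted 10 times on each array, with an SD between spots of 0.056, 0.056, 0.060 and 0.051 in the order above, which covers spotting and scanning only.

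Col1a2 (probe at chr6:4490619-4490678, plus strand) followed the same order, at -1.60, -1.73, 5.60 and 4.77. Its differences were 7.20 against imDCs and 7.34 against maDCs, 148-fold and 162-fold. The second probe of Col1a2 was not well above background on any array. Of the remaining probes of Col1a1, 1 read -6.59 in imDCs, was not well above background in maDCs and read 0.03 and -0.89 on the sDC arrays, a difference of 6.62 against imDCs. The last one was measured on the sDC arrays alone, at -4.19 and -5.10.

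Col3a1, the chain of type III collagen, which mixes with type I collagen in distensible tissues, was not well above background in imDCs and read -3.75 in maDCs, 4.85 in sDCs and 3.88 in antibody-treated sDCs (probe at chr1:45405589-45405648, plus strand). It was 389-fold higher in sDCs than in maDCs, a difference of 8.60. Against imDCs the bound was at least 4271-fold, a log2 difference of 12.06. That bound depends on the background: it was 9.45 with normexp correction and 7.44 over the mean of the gene's detected probes. A dimmer probe of Col3a1 was measured in sDCs alone, at -5.02.

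Type V and type XI chains sit inside type I and type II fibrils and set where a fibril starts and how thick it grows. Col5a2 read -5.48 in imDCs, was not well above background in maDCs, and read 0.78 in sDCs and -0.0021 in antibody-treated sDCs. Its sDC level was 76.6-fold that of imDCs and at least 64.2-fold that of maDCs. Col5a1, whose probe was bright on every array, was higher in sDCs by less, at 0.29, 2.06, 3.04 and 2.32. It was 6.75-fold higher in sDCs than in imDCs and 1.97-fold higher than in maDCs, just inside the 2-fold limit.

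Col5a3 read -5.96, -3.12, -2.24 and -3.15, which put sDCs 13.1-fold above imDCs and 1.84-fold above maDCs. Its second probe was well above background in imDCs alone, at -6.59. Both Col5a1 and Col5a3 were thus closer between sDCs and maDCs than Col5a2 was. Col11a1 read -4.96 in imDCs, was not well above background in maDCs, and read -0.82 and -1.36 on the sDC arrays, a 17.7-fold difference from imDCs and at least 23.3-fold from maDCs. The other probes of Col11a1 were not well above background on any array. Its partner Col11a2 varied little, at -1.92, -0.88, -1.17 and -0.78, and by this probe passed 2-fold only in maDCs against imDCs, at 2.06-fold. Its second probe, shown above, was 2.49-fold higher in maDCs than in imDCs and 2.06-fold higher in sDCs than in imDCs.

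Col24a1, a minor fibrillar chain, was measured on the sDC arrays alone, at -3.54 in sDCs and -3.77 in antibody-treated sDCs. It was at least 12.7-fold higher in sDCs than in imDCs and at least 3.3-fold higher than in maDCs. Col27a1, another minor chain, had its highest level in maDCs instead, with -6.31, -1.64, -4.00 and -3.88. Its sDC level was 4.97-fold that of imDCs but 5.13-fold below that of maDCs.

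The probes of Col2a1, the chain of type II cartilage collagen, gave different patterns. The probe used (chr15:97806505-97806564, minus strand) read -2.64, 0.43, -0.76 and -0.92, highest in maDCs and 2.28-fold lower in sDCs than in maDCs. A second probe (chr15:97806485-97806544), which shares 40 of its 60 bases with the first and was spotted 10 times, read -6.96 in imDCs, was not well above background in maDCs, and read -0.02 and -0.95 on the sDC arrays. By that probe sDCs were 123-fold above imDCs and at least 40.5-fold above maDCs, the opposite direction. The third Col2a1 probe was not well above background on any array. No direction can therefore be given for Col2a1 between sDCs and maDCs, although the probe used counts among the 6 lower genes.

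**Figure D2:**
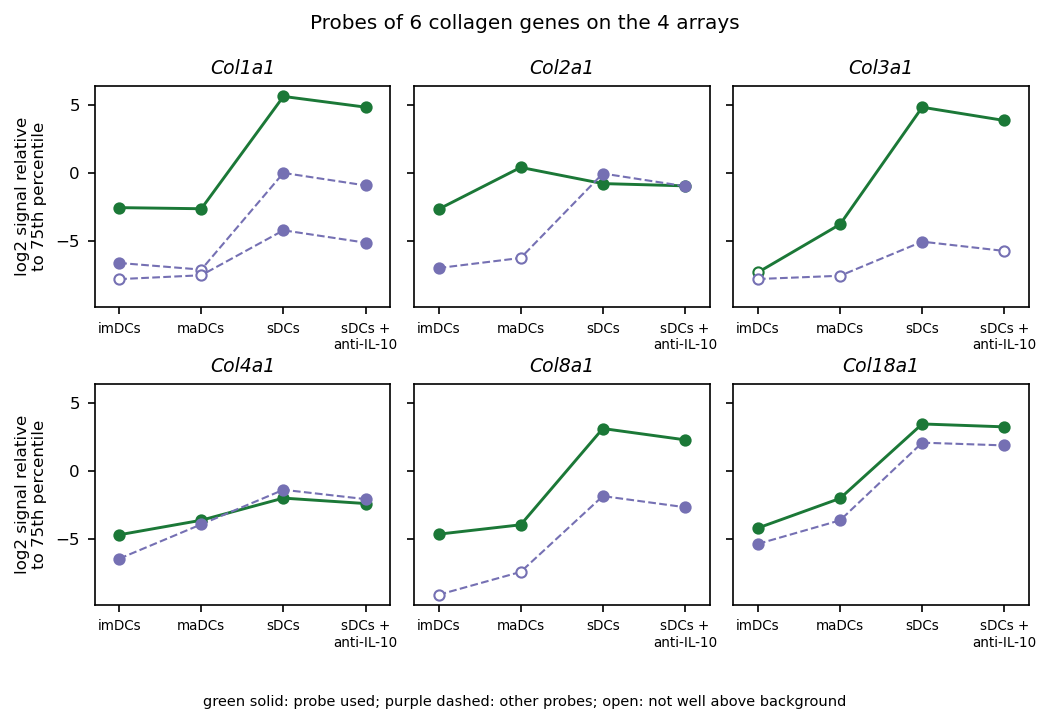
Log2 signal relative to the array's 75th percentile on the 4 arrays for every measured probe of 6 collagen genes, with the probe used as a solid green line, the others dashed in purple, and open points where a probe was not well above background. For Col1a1, Col3a1, Col4a1, Col8a1 and Col18a1 the sDC arrays lie highest by each probe, while the Col2a1 probes part, at 0.43 in maDCs for the probe used and not well above background for the other.

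Type IV collagen forms the mesh of basement membranes, the sheets under epithelia and around vessels. Of 5 chains with a value, 3 were at least 2-fold higher in sDCs than in imDCs and 1 than in maDCs. Col4a1, part of the common type IV molecule, read -4.68, -3.61, -1.98 and -2.38 across imDCs, maDCs, sDCs and antibody-treated sDCs, 6.48-fold higher in sDCs than in imDCs and 3.09-fold higher than in maDCs. Its second probe gave 33.4-fold and 5.81-fold.

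Col4a2, its partner in the same molecule, read -3.36, -1.43, -1.05 and -1.76. The difference of sDCs was 4.96-fold against imDCs and 1.30-fold against maDCs, and by its second probe 2.96-fold and 1.23-fold. Both genes lie head to head on chromosome 8, and their promoter windows overlap by 78 bases on opposite strands. Col4a5, a chain of kidney and lung basement membranes, read -6.19 in imDCs, was not well above background in maDCs, and read -4.60 and -5.30 on the sDC arrays, 3.02-fold higher in sDCs than in imDCs.

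Col4a4 and Col4a6 kept within 2-fold in all 4 comparisons. Col4a4, a partner of the unmeasured Col4a3, read 2.47, 2.75, 2.08 and 2.14. Col4a6 read -0.94, -0.03, -0.16 and -0.24. Both levels rest on 1 probe: the second probe of Col4a4 and the other 2 of Col4a6 were not well above background on any array, and the listed position of the Col4a4 probe covers 29 of its 60 bases.

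Of the short-chain and beaded-filament collagens, 2 of 3 and 2 of 4 had a value in sDCs against imDCs and against maDCs. All of those with a value were at least 2-fold higher in sDCs in both comparisons. Col8a1, a chain of the hexagonal networks under endothelium, read -4.63, -3.95, 3.13 and 2.30 (probe at chr16:57627033-57627092, minus strand). Its sDC level was 217-fold that of imDCs and 134-fold that of maDCs. Its second probe was measured on the sDC arrays alone, at -1.84 and -2.65. Col8a2, its partner chain, was likewise measured only there, at -3.61 and -4.15, at least 12.1-fold above imDCs and at least 3.36-fold above maDCs.

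Col6a1 and Col6a2 encode chains of type VI collagen, which forms fine filaments around cells. Col6a1 was not well above background in imDCs or maDCs and read 0.01 in sDCs and -0.85 in antibody-treated sDCs, at least 149-fold above imDCs and at least 41.2-fold above maDCs. Col6a2, its neighbour on chromosome 10, read -5.92 in imDCs, was not well above background in maDCs and read -3.57 and -4.13 on the sDC arrays, 5.11-fold above imDCs and at least 3.45-fold above maDCs. The third chain of the usual molecule, Col6a3, was measured by neither of its probes.

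Fibril-associated collagens (FACITs) do not form fibrils but coat them and link them to other matrix. Of 8 with a value, 5 were at least 2-fold higher in sDCs than in imDCs, and against maDCs 4 were higher and 2 lower. Col12a1, found on type I fibrils under load, was not well above background in imDCs and read -3.82, 1.16 and 0.44 on the other arrays. It was at least 330-fold higher in sDCs than in imDCs and 31.5-fold higher than in maDCs.

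Col14a1, which sits on the same kind of fibril, had another pattern, with -4.57, -1.62, -4.78 and -5.50. Its level in maDCs was 7.75-fold that of imDCs and 8.93-fold that of sDCs, and sDCs and imDCs differed 1.15-fold. The second probe of Col14a1 was not well above background on any array. Col16a1 read -6.70 in imDCs, was not well above background in maDCs, and read 1.01 and 0.09 on the sDC arrays, 209-fold above imDCs and at least 82.4-fold above maDCs. Its imDC level was near the faintest signal marked on that array, -7.21, so the 209-fold is uncertain in size. The second probe of Col16a1 was not well above background on any array. Col20a1 read -2.28, -1.22, 0.23 and 0.57, with sDCs 5.67-fold above imDCs and 2.72-fold above maDCs.

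Among the FACITs of cartilage, Col9a2 and Col9a3, partners in type IX collagen, lay in opposite order. Col9a2 read -2.72, -2.47, -3.70 and -3.48, lower in sDCs by 1.96-fold against imDCs and 2.33-fold against maDCs. Col9a3 read -6.72, -5.21, -4.06 and -3.47, higher in sDCs by 6.31-fold and 2.21-fold. Col19a1 was measured in maDCs at -5.06 and in sDCs at -5.36, and was not well above background on the other 2 arrays. It was at least 3.61-fold higher in sDCs than in imDCs. Col22a1, a chain of tissue junctions, read -5.73, -5.18 and -5.13 in imDCs, sDCs and antibody-treated sDCs and differed by at least 2-fold in no comparison.

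Transmembrane collagens stay anchored in the cell surface. Of 3 with a value, 2 were at least 2-fold lower in sDCs than in imDCs and 1 was higher. Col17a1, a component of the hemidesmosomes of skin, read -2.74 in imDCs and -2.52 in maDCs and was not well above background on either sDC array, at least 9.31-fold and 10.8-fold lower in sDCs. Its second probe, measured in imDCs alone, was at least 1.23-fold lower than there. Col23a1 read -2.75, -1.94, -4.64 and -4.87, 3.71-fold lower in sDCs than in imDCs and 6.5-fold lower than in maDCs. By its second probe the Col23a1 differences were 1.03-fold and 1.44-fold, the same direction and inside the 2-fold limit.

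Col25a1 read -5.97, -4.87 and -5.07 in imDCs, sDCs and antibody-treated sDCs, 2.15-fold higher in sDCs than in imDCs. Its other probes were not well above background on any array. Col13a1, a collagen of the neuromuscular junction, was measured in imDCs alone, at -6.98, too low to give a bound on the other arrays.

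Col18a1, the basement membrane multiplexin whose end is cut off as endostatin, read -4.18, -2.0, 3.46 and 3.25. Its sDC level was 200-fold that of imDCs and 44.2-fold that of maDCs, and its second probe gave 173-fold and 52.2-fold. Col15a1, the related multiplexin, ran the other way, with -6.21 in imDCs and -5.28 in maDCs and no measured level on the sDC arrays, where it was at least 1.60-fold lower than in maDCs. The second probe of Col15a1 was not well above background on any array. Col7a1, the chain of the anchoring fibrils of skin, read -1.21, -1.15, 1.68 and 1.87, which put sDCs 7.39-fold above imDCs and 7.12-fold above maDCs.

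**Figure D3:**
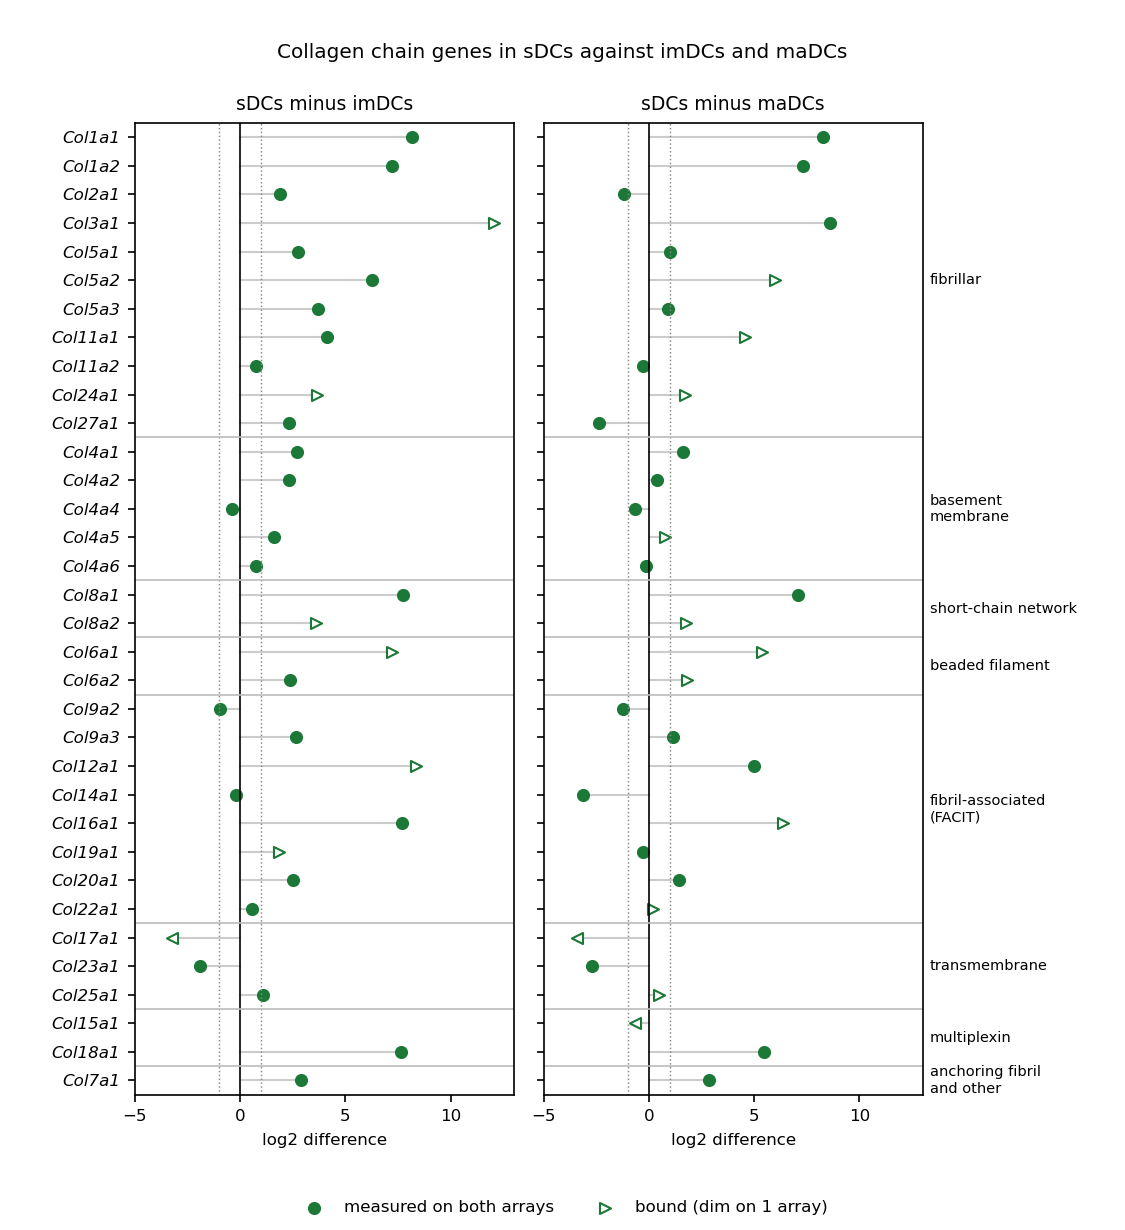
Log2 differences of sDCs minus imDCs and of sDCs minus maDCs for collagen genes measured on at least 1 array, by class, with triangles for bounds pointing away from 0 and dotted lines at 2-fold. In the left panel 25 genes lie beyond the upper line and 2 transmembrane chains beyond the lower one, and in the right panel 17 lie above and 6 below.

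Genes that share a locus, or a molecule, did not always share a size of difference. Col3a1 and Col5a2, neighbours on chromosome 1, were both far higher in sDCs than in maDCs, at 8.60 and at least 6.0. Against imDCs, Col6a1 was at least 7.22 higher and Col6a2 2.35 higher by the probe used, or at least 3.55 by its second probe. Against maDCs Col6a1 and Col6a2 had bounds alone, at least 5.37 and at least 1.79, so their sizes cannot be compared. In the neighbouring pair Col4a5 and Col4a6 on the X chromosome, Col4a5 was 1.60 and Col4a6 0.77 higher in sDCs than in imDCs. Where another probe of a gene was measured on both arrays, it had the same sign as the probe used in 8 of 8 cases for sDCs against imDCs and in 7 of 7 for sDCs against maDCs. The second Col2a1 probe is outside the latter count, since it was not well above background in maDCs.

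The comparison of maDCs with imDCs asked how collagen genes stood after LPS and a longer culture, with no MSC layer named for either culture. Whether stromal cells were absent from these cultures was not tested. Of 25 genes with a value, 14 were at least 2-fold higher in maDCs, 3 of them as a bound, beside 22.5% of all genes. The count of lower genes was 0, beside 9.84% of all genes. The median difference was 1.06, beside 0.23 over all genes. Fibrillar chains made up 6 of the 14 and FACITs 5. The list did not follow the sDC pattern gene by gene: Col1a1, Col1a2, Col8a1 and Col7a1 differed between maDCs and imDCs by -0.08, -0.13, 0.69 and 0.05.

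In log2 terms, Col27a1 was 4.67, Col3a1 at least 3.46 and Col12a1 at least 3.39 higher in maDCs than in imDCs. Col2a1 was higher 8.41-fold by the probe used, Col14a1 7.75-fold, Col5a3 7.15-fold and Col18a1 4.52-fold. Col19a1 was at least 4.44-fold higher, Col4a2 3.81-fold, Col5a1 3.42-fold and Col9a3 2.85-fold. Col4a1, Col20a1 and Col11a2 lay close to the limit, at 2.10-fold, 2.08-fold and 2.06-fold. The Col3a1 value depends on the processing: it was 1.69 with normexp, 1.88 over the mean of probes and 2.84 with the authors' values. For Col1a1 the small difference changed sign with the processing, between -0.34 with the authors' values and 0.01 with normexp correction.

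Markers of some other cell types also lay higher in maDCs than in imDCs. Of the stromal list 4 of 9 genes with a value were at least 2-fold higher and 1 lower. Twist1 was higher 6.27-fold, Pdgfrb 5.96-fold, Eng 4.74-fold and Ly6a 4.6-fold, and Nt5e was lower 3.79-fold. Of the macrophage list 7 of 9 were higher and 0 lower, and of the endothelial list 4 of 6 were higher and 1 lower. The pericyte and smooth muscle list went the other way, with 0 of 5 higher and 2 lower. Higher and lower genes numbered 1 and 0 of 4 for osteoblasts and chondrocytes and 2 and 1 of 5 for epithelium. They numbered 3 and 0 of 10 for dendritic cells and 1 and 1 of 5 for leukocytes. Their part in the collagen values was not tested.

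With the IL-10 antibody, no collagen gene differed from sDCs by 2-fold by the probe used. The second probe of Col6a2, at -3.66 in sDCs and -4.81 with the antibody, was 2.23-fold lower, and with the mean of probes 1 gene passed 2-fold. Of 32 genes with a value, 0 were at least 2-fold higher (1.03% of all genes) and 0 at least 2-fold lower (1.24% of all genes). Most lay somewhat lower with the antibody: 24 of the 32 were below 0, where 52.0% of all genes were, and the median was -0.47, beside -0.01 over all genes. At a limit of 1.5-fold, chosen after the values were seen, 13 genes were lower, beside 4.91% of all genes, and 1 was higher, beside 2.80%.

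The 13 genes at least 1.5-fold lower lay between -0.97 and -0.71. Among fibrillar chains, Col3a1 had -0.97, Col5a3 -0.91, Col1a2 -0.83, Col1a1 -0.79, Col5a2 -0.78 and Col5a1 -0.73. The difference of Col1a1 was larger than its SD between spots, 0.060 in sDCs and 0.051 with the antibody, but the spread between cultures was not measured. The others were Col16a1 at -0.92, Col6a1 at -0.86, Col8a1 at -0.83, Col12a1 and Col14a1 both at -0.72, and Col4a2 and Col4a5 both at -0.71.

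The 1 gene at least 1.5-fold higher with the antibody was Col9a3, at 0.59. Col11a2 and Col20a1 lay 0.39 and 0.34 higher and Col7a1 0.19 higher. Col18a1, one of the genes furthest above imDCs in sDCs, lay 0.21 lower, less than the type I, III and VIII chains did. The median by class was -0.73 for fibrillar chains, -0.71 for beaded-filament chains, -0.69 for short-chain collagens, -0.40 for type IV chains and -0.13 for FACITs. Other probes of the same genes had the same sign in 12 of 13 cases, with Col11a2 the exception.

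**Figure D4:**
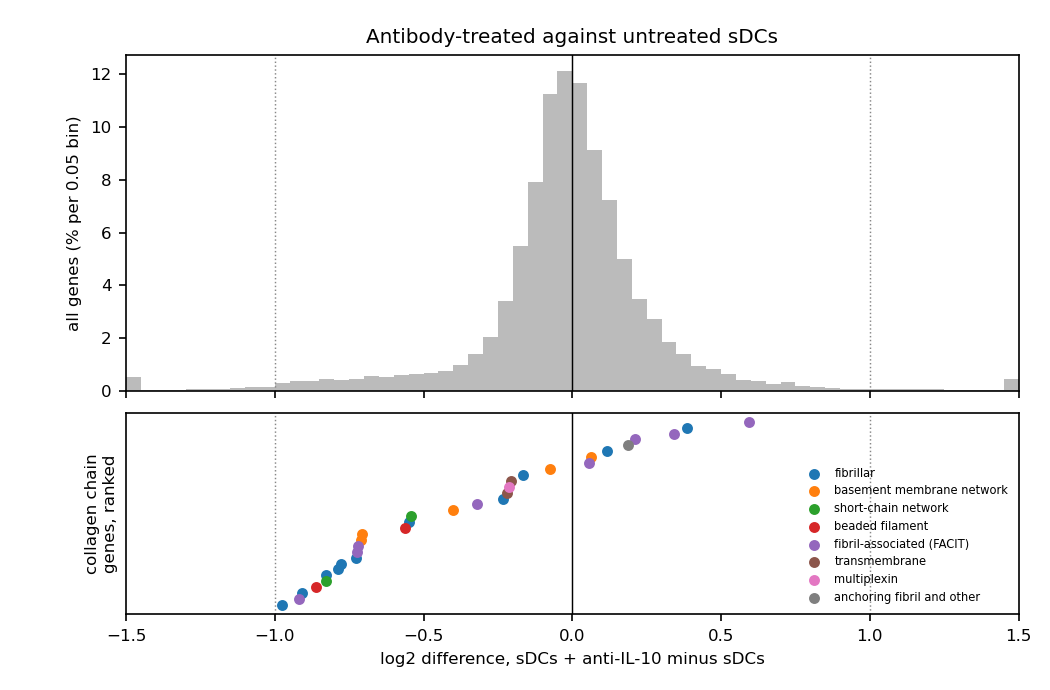
Log2 difference of antibody-treated sDCs minus sDCs, above as the share of all genes per bin of 0.05 with the outermost bins holding everything beyond, and below as 1 point per collagen chain gene in rank order, coloured by class. The gene histogram is centred near 0, with a median of -0.01, and the collagen points run from -0.97 (Col3a1) to 0.59 (Col9a3), 24 of 32 below 0.

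The genes that modify, cut, crosslink, bind and degrade collagen were counted by role, to be read against the 28.2% of all genes that were at least 2-fold higher in sDCs than in imDCs. Enzymes and chaperones of chain modification and folding held 9 of 16 genes with a value at least 2-fold higher in sDCs than in imDCs and 0 lower. Serpinh1, the collagen chaperone Hsp47, read -3.11, -3.20, 4.10 and 3.10, a 148-fold difference from imDCs. P4ha2, a prolyl 4-hydroxylase subunit, was 115-fold higher, and read 1.82 in maDCs and 3.46 in sDCs. Fkbp10, a folding enzyme of type I procollagen, was 103-fold higher and P3h3, of the prolyl 3-hydroxylase family, 30.1-fold.

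Of the genes for procollagen processing, 4 of 5 with a value were at least 2-fold higher in sDCs than in imDCs. Pcolce, which enhances removal of the C-terminal propeptide, was 112-fold higher, Adamts2, which removes the N-terminal one, 48-fold, and Bmp1, the C-proteinase, 2.09-fold. Pcolce2, related to Pcolce, was at least 13-fold higher, and Adamts14, at 1.68-fold, was the gene not counted. Of the crosslinking enzymes 5 of 6 were higher. Among them the lysyl oxidases Loxl1, Lox, Loxl2 and Loxl3 differed 269-fold, 102-fold, 86.0-fold and 7.35-fold. The imDC level of Loxl1, -6.67, was near the faintest signal marked on that array, so the 269-fold is uncertain in size. Lox was also 32.7-fold higher in maDCs than in imDCs.

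All 10 genes of fibril assembly were at least 2-fold higher in sDCs than in imDCs. The small proteoglycans decorin (Dcn) and biglycan (Bgn), which bind fibrils, differed 1149-fold and 23.5-fold. Sparc, a collagen-binding matricellular protein, differed 188-fold and periostin (Postn) 62.0-fold. Dcn read -6.18, -1.15, 3.98 and 3.03, so that maDCs stood between imDCs and the sDC arrays. Its imDC level was dim, so the 1149-fold is uncertain in size.

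Of 8 receptor genes with a value 4 were at least 2-fold higher in sDCs than in imDCs. The integrin chain Itga11 differed 182-fold, the receptor kinases Ddr2 and Ddr1 11-fold and 2.86-fold, and the inhibitory leukocyte receptor Lair1 2.14-fold. Of the breakdown and uptake genes 11 of 12 were higher and 1, Mmp2, lower, by 3.93-fold. The membrane collagenase Mmp14 differed 40.9-fold, its regulator Timp2 28.8-fold, Timp1 13.9-fold and the gelatinase Mmp9 12.5-fold.

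In sDCs against maDCs, where 15.4% of all genes were higher and 16.1% lower, the counts of higher and lower genes were 6 and 1 of 16 for modification, 3 and 1 of 5 for processing, 3 and 1 of 5 for crosslinking, 8 and 0 of 9 for fibril assembly, 4 and 1 of 8 for receptors and 7 and 2 of 12 for breakdown. In maDCs against imDCs, where 22.5% of all genes were higher and 9.84% lower, they were 7 and 0 of 15, 2 and 0 of 4, 4 and 0 of 4, 3 and 1 of 6, 3 and 0 of 8, and 7 and 2 of 11 in the same order. With the antibody, 0 genes of any list were at least 2-fold higher, 0 of 15 modification genes were lower, and each of the other lists held 1 lower gene. The median difference with the antibody was -0.79 for fibril assembly, -0.85 for processing and -0.18 for modification.

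**Figure D5:**
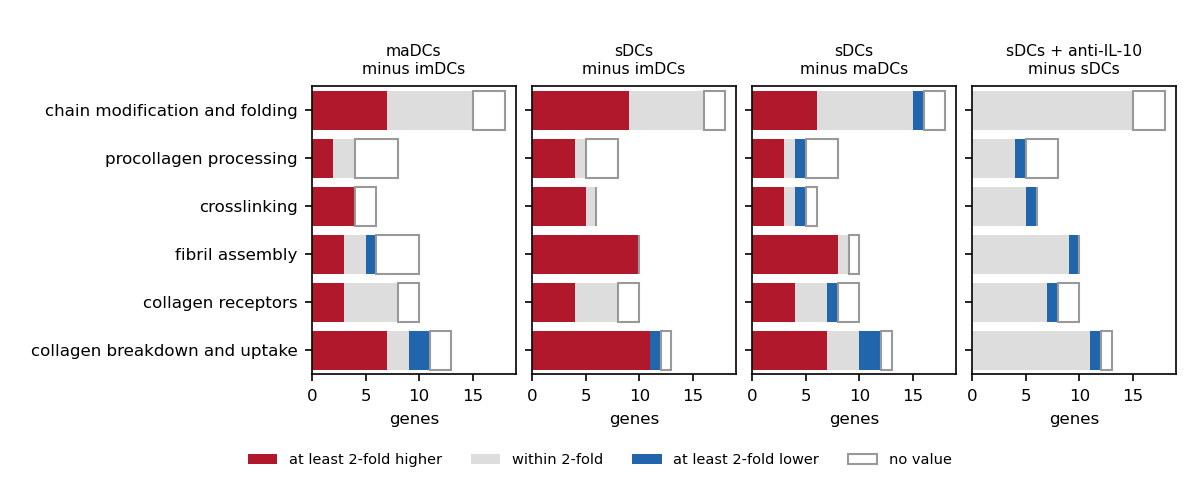
Number of genes of 6 lists of the collagen pathway that were at least 2-fold higher (red), within 2-fold (grey), at least 2-fold lower (blue) or without a value (white) in each of the 4 comparisons. In sDCs minus imDCs all 10 fibril assembly genes and 11 of 13 breakdown genes are red, and in the antibody comparison no list has a red bar.

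Markers of the cell types the cultures could hold were counted beside these collagen values, and the lists went different ways. Of 12 mesenchymal stromal markers without collagens, 8 were at least 2-fold higher in sDCs than in imDCs and 2 lower. Against maDCs, 6 of the 12 were higher in sDCs and 3 lower. All 12 were well above background in sDCs, against 10 in imDCs and 8 in maDCs. Pdgfra and Twist2 were not well above background in imDCs or maDCs and read -0.01 and 1.13 in sDCs. Prrx1, Cxcl12, Pdgfrb and Twist1 were 115-fold, 29.6-fold, 19.1-fold and 12.1-fold higher in sDCs than in imDCs. Those lower than in imDCs were Thy1 and Vcam1, by 4.05-fold and 2.92-fold. The summed linear level of the list, on a scale where the 75th percentile is 1, was 129 in imDCs, 120 in maDCs, 52.5 in sDCs and 35.3 with the antibody. Thy1 made up 112 of the 129 in imDCs, and without it the sums were 16.2, 14.9, 24.8 and 20.7, higher in sDCs. Such a sum adds probes of different brightness and is compared only between arrays. The part of these cells in the collagen differences was not tested.

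Most of these stromal markers also lay lower with the antibody. The median difference of the 12 stromal markers was -0.74, with Pdgfra at -0.96, Twist2 at -0.89, Twist1 at -0.77, Cxcl12 at -0.75 and Prrx1 at -0.73. Others did not follow, with Cdh11 at 0.13, Nt5e at 0.08 and Eng at -0.11, and the macrophage genes C1qc and C1qa lay at -0.93 and -0.85. Their part in the collagen values was not tested. In bulk samples such as these, fewer cells of a type and less RNA per cell cannot be told apart. The median of the 9 macrophage markers was -0.28, and the leukocyte list summed to 162 in sDCs and 165 with the antibody.

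The dendritic cell markers lay lower in sDCs than in imDCs and maDCs, although 9 of 10 were well above background in sDCs. H2-Ab1 and Cd74 still read 2.31 and 1.59 there. All 10 were at least 2-fold lower in sDCs than in imDCs and than in maDCs, with a summed level of 307 in imDCs, 437 in maDCs, 10.0 in sDCs and 9.17 with the antibody. H2-Aa, Ciita, Cd74 and Ccr7 were 127-fold, 55.8-fold, 53.8-fold and 26.5-fold lower than in imDCs. Irf4 was not well above background on either sDC array, and Itgax, the gene of CD11c, named here after its values were seen because imDCs were selected by it, was 23.0-fold lower. Macrophage markers were at least 2-fold higher than in imDCs for 9 of 9 genes, among them C1qc, C1qa and Mertk at 128-fold, 48.4-fold and 13.6-fold, with summed levels of 40.8, 154, 307 and 271 in the array order used above.

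The lists of other lineages held both higher and lower genes in sDCs against imDCs. Of the osteoblast and chondrocyte list, Ibsp, Alpl and Matn3 were not well above background on any array and Sox9 on none but imDCs, while Spp1 was 7.72-fold higher in sDCs than in imDCs, and 2 of 5 genes with a value were higher and 1 lower. Of the pericyte and smooth muscle list, Rgs5 was not well above background on any array, and 3 of 6 genes were higher and 1 lower, with Tagln at 18.7-fold and Cspg4 at 4.62-fold. For endothelium 2 of 7 were higher and 1 lower, and for epithelium 3 of 6 were higher and 2 lower. Against maDCs, higher and lower genes numbered 1 and 2 of 4, 4 and 0 of 6, 1 and 3 of 6, and 1 and 2 of 5 in the same order. Summed levels of these 4 lists in sDCs were 508, 44.6, 5.87 and 2.72, and in imDCs 67.7, 47.5, 5.06 and 7.92. The first of these is nearly all Spp1: without it the osteoblast and chondrocyte list summed to 1.07 in sDCs and 2.15 in imDCs.

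The groups differ in more than 1 respect. Stroma, starting cells, culture time and LPS differ together between sDCs and imDCs, and the imDC sample was hybridised and scanned on a different slide from the other 3, so in comparisons with imDCs these cannot be told apart. The sDCs and maDCs both received LPS, but starting cells and stroma differ together, the LPS dose of sDCs is not stated, and the labels give GM-CSF, IL-4 and CD11c selection for the imDC and maDC cultures alone. In both comparisons with sDCs these cannot be told apart. The counts also rest in part on genes with a dim side: with only genes well above background on all 4 arrays, 13 in place of 25 genes were higher in sDCs than in imDCs and 8 in place of 17 than in maDCs.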

How the data were processed

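RNA from 4 mouse cultures was hybridised to 1 one-colour Agilent array each. The deposited scanner tables give a background-subtracted intensity per spot, made with Agilent Feature Extraction 10.5.1.1 per the file headers with probe positions in mm9 (version 9.1 per the submitters' processing notes). A log2 value table was deposited too. Its columns correlated with log2 intensity at 0.997 or above and had 1 median, 6.30. Their quantiles differed from those of the imDC column by at most 0.0015, so the columns share nearly 1 distribution. The table was used as an alternative, which is therefore not independent of the quantile normalization alternative. Its ratio direction is not at issue with 1 sample per array.

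Control spots and outlier spots (76 to 148 per array) were left out, no spot was saturated (0 on each array), spots of a probe were averaged, and each array's 75th percentile over probes was subtracted from log2 intensity. Each array held 43379 spots of 41174 probes, of which 61.2% to 69.7% were well above background. The median SD between spots of 1 probe was 0.047 to 0.059, and the number of arrays limits the precision.

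Promoters, neighbouring genes and names came from RefSeq tables of GRCm38.p6, and no coordinates were converted. The members and lists were chosen with earlier results of these data known. Every measured member is named, those at least 2-fold different in any comparison with all their values, and of each list up to 4 genes with the largest measured difference between sDCs and imDCs. Of the macrophage list, 1 gene that the rule takes is not reported here. Pcolce2, Mmp2, Pdgfra, Twist2, Thy1, Vcam1, Eng, Ly6a, Cdh11, Nt5e and dim markers were named after their values were seen. Chain classes and lists of the pathway roles, mesenchymal stroma, osteoblasts and chondrocytes, pericytes and smooth muscle, endothelium, epithelium, dendritic cells, macrophages and leukocytes were used. The difference script was tested on simulated data. In all, 8 alternatives were planned and 1 was added after seeing the data. Python 3.11.15, numpy 2.4.6, pandas 2.3.3, matplotlib 3.10.9 and R 4.3.3 with limma 3.58.1 (normexp) were used.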

Additional observations from a re-analysis of the deposited data

How the results depend on the processing

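Of single genes, only Col1a1, Col3a1 and Col8a1 were recomputed, under quantile normalization, the authors' values, normexp, another percentile and the mean of probes. Of these 60 values 59 kept their sign, the exception being Col1a1 in maDCs against imDCs with normexp.

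For maDCs against imDCs, 8 genes were higher at 4-fold, and the median was 0.86 with quantile normalization, 0.91 with normexp, 0.89 with the authors' values and 1.18 with mean probes. For sDCs against imDCs, 13 were higher and 1 lower among genes measured on all 4 arrays, and 1 was lower at 4-fold. That median was 2.26 with quantile normalization, 1.71 with normexp, 2.18 with the authors' values, 2.50 on all 4 arrays, 2.77 with mean probes and 2.50 with RefSeq names. For sDCs against maDCs, 8 were higher on all 4 arrays and 11 at 4-fold, and the median was 0.70 with normexp, 0.88 on all 4 arrays, 1.30 with mean probes and 0.98 with RefSeq names. With the antibody, 1 was higher and 13 lower at 1.5-fold, 1 lower with mean probes, and the median was -0.25 with normexp, -0.21 on all 4 arrays, -0.54 with mean probes and -0.36 with RefSeq names. The causes were not tested.

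Over all genes, the median for maDCs against imDCs moved from 0.23 to 0.02 with quantile normalization, and the share of higher among the genes past 2-fold from 69.6% to 58.7% (57.5% with the authors' values). For sDCs against imDCs the median moved from 0.31 to 0.08 and the share from 65.8% to 56.0% (55.3%). Relative to that median, the collagen median was 0.82 and 0.84 in maDCs, and 2.35 and 2.18 in sDCs.

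No paired analysis was possible because each group has 1 array. For the same reason, leaving out a replicate and fitting the slide as a block were not run. Signal near background limits the dim genes, which have bounds alone.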

Other observations

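RefSeq lists 44 collagen chain genes that are on the array, 3 of them under array names outside the naming pattern used here. Col6a4 (array name 1110001D15Rik), a type VI chain, read -4.68 in imDCs, -4.25 in maDCs, -4.30 in sDCs and -4.18 in antibody-treated sDCs by its brighter probe, within 2-fold on the 4 arrays. Its dimmer probe read -6.05, -5.70 and -5.25 in imDCs, sDCs and antibody-treated sDCs and was not well above background in maDCs. Col6a6 (array name E330026B02Rik), another type VI chain, was well above background on the sDC arrays alone, at -5.40 and -4.89. Col26a1 (array name Emid2) was not well above background on any array.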
